A study of Homo sapiens with 10 samples.

Results

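The genes of the RNA-seq count table were compared between human embryonic stem cells (ESCs) and the neuroectodermal cells (NECs) made from them, function by function. All 31017 genes of the table were taken, which are all the genes measured by RNA-seq in the series, in 4 of its 10 libraries. The other libraries measured chromosome contacts and were not used. The ESCs were of the line H9 (WA09), an established line from 1 embryo, and were grown in Pluripro medium on Pluripro matrix. The NECs were derived from H9 by a differentiation protocol published earlier and were harvested on day 7. They grew as spheres, while the ESCs grew as colonies. No gene was deleted and no agent was compared, so both groups share the genome of 1 line. Each cell type had 2 biological replicates, and total counts were 19234087 and 25356382 for the ESC libraries and 20793224 and 24323762 for the NEC libraries. Both ESC libraries came from one sequencing lane and both NEC libraries from another, so lane and cell type cannot be told apart in any comparison here. Culture conditions also went with the cell type and cannot be told apart from it. In bulk RNA, a change in the number of cells of one kind and a change of RNA within a cell cannot be told apart either.

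Levels are given as CPM, counts scaled to a common library size that was adjusted with TMM, for each replicate in turn (n = 2 for each cell type). CPM is not divided by gene length, so levels are compared between libraries and not between genes. A gene was called when edgeR's quasi-likelihood test gave a Benjamini-Hochberg adjusted p under 0.05 over all 17564 genes tested and the log2 fold change, NEC over ESC, lay beyond 1.5 either way. Of these genes, 1997 (11.4%) were called higher and 1700 (9.68%) lower in NECs, and the median over all tested genes was 0.01. With the adjusted p alone, 31.5% were higher and 29.7% lower. These percentages are the background against which each list below is read. A list is described by its called members and by its median, and no list was tested as a set. Some genes stand in more than one list.

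Pluripotent stem cells hold an epithelial state in which OCT4 (POU5F1), NANOG and SOX2 keep developmental genes low, and in culture they depend on FGF and NODAL or activin signals. Loss of NODAL and BMP signalling turns them towards neuroectoderm, the layer that forms the neural tube, where SOX and PAX transcription factors, NOTCH signalling between neighbours, and gradients of WNT, Hedgehog and retinoic acid assign position. Neuroepithelial cells keep dividing, carry a primary cilium, and exchange E-cadherin for other cadherins.

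The marker lists went in the direction of the labels. POU5F1 had 1481 and 1437 CPM in the ESC libraries and 31.01 and 111 CPM in the NEC libraries. Its groups did not overlap (log2 fold change -4.35 ± 0.57 (SE), adjusted p = 9.91e-04), and NEC replicate 2 kept more of this transcript than NEC replicate 1. PAX6, a neuroectoderm regulator, had 1.64 and 1.13 CPM in the ESC libraries and 86.4 and 52.8 CPM in the NEC libraries. SOX2, which both cell types use, had 343 and 329 CPM in the ESC libraries and 369 and 410.04 CPM in the NEC libraries. Of 33 tested pluripotency regulators, 22 fell and 1 rose (median -2.56). Of 46 tested genes in the list of neuroectoderm transcription factors, 37 rose and 1 fell, with a median of 5.51. The list includes DLK1, which rose and is not a transcription factor. The median was 5.19 with the 6 members absent from 1 cell type set at their bound. A bound sets 3 counts a library in place of 0.

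**Figure D1:**
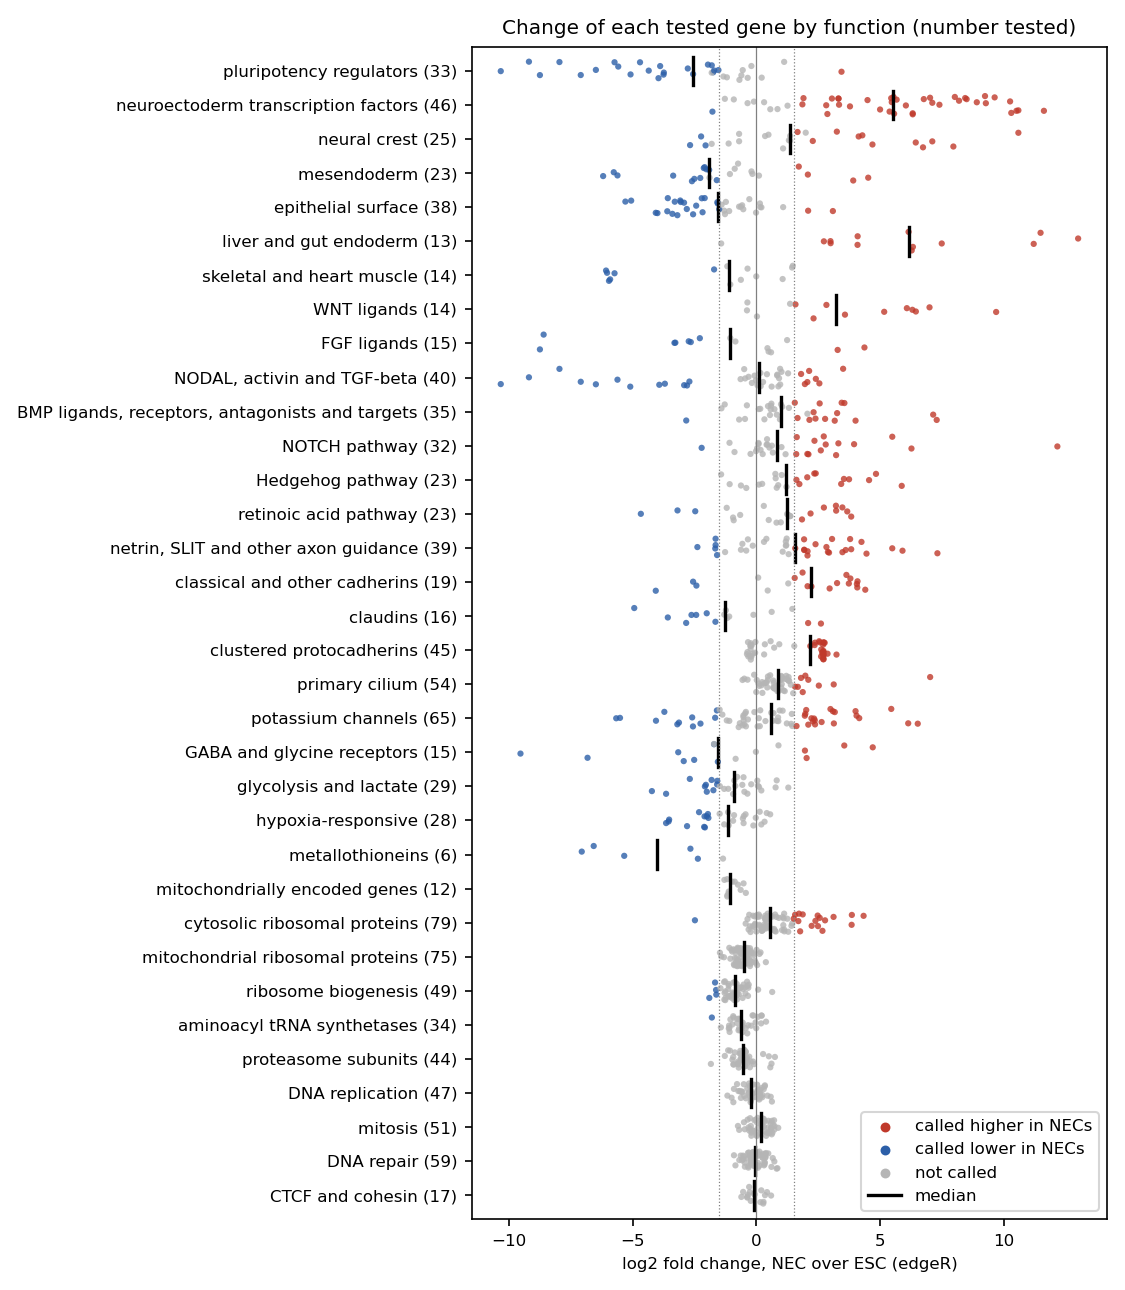
Each point is a tested gene, placed by its log2 fold change (NEC over ESC) on the horizontal axis and grouped by function on the vertical axis. Black bars are medians, and colours mark genes called higher (red) or lower (blue) in NECs. Neuroectoderm transcription factors and WNT ligands lie to the right, pluripotency regulators to the left, and the 34 to 75 members of the lists for mitochondrial ribosomes, tRNA synthetases and the proteasome lie mostly left of 0.

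Among well expressed genes (log2 CPM averaging 4 or more), the steepest changes spanned several functions. LEFTY1 (chr1:226073982-226099082 in GRCh37), an inhibitor of NODAL, fell from the ESC to the NEC libraries, with 382 and 361 CPM in the ESC libraries and 0.140 and 0.405 CPM in the NEC libraries (log2 fold change -10.34 ± 0.23 (SE), adjusted p = 5.87e-06). LEFTY2 fell likewise (log2 fold change -9.20), though the 2 genes are close in sequence and may share reads. NODAL itself had 68.8 and 161 CPM in the ESC libraries and 0.608 and 0.324 CPM in the NEC libraries (log2 fold change -7.96, adjusted p = 1.31e-04). Each of these genes was near 0 in both NEC libraries. GABRP, a GABA receptor subunit, fell from 380.1 and 403 to 0.514 and 0.527 CPM. The noncoding LINC00458 and HHLA1, a gene named for a human endogenous retrovirus element at its locus, fell too (log2 fold change -9.29 and -8.05). In the other direction, MMRN1 (chr4:90800683-90875780), which codes for the blood and vessel glycoprotein multimerin, had no count in either ESC library and 86.4 and 67.4 CPM in NECs, at least 549-fold higher. The nuclear receptor genes NR2F1 (chr5:92919043-92930321) and NR2F2 had 0 and 2, and 1 and 2, counts in ESCs against 4252 and 3103, and 2405 and 1869, counts in NECs. The ratio was 3483-fold (95% interval 964 to 28763) for NR2F1 and 1349-fold (95% interval 461 to 6545) for NR2F2, where the interval is exact binomial and covers counting error only. FGA, a fibrinogen gene described with the liver markers, had a steeper rise than NR2F1 by the fitted value and no count in ESCs. GREB1L, DLK1, POU3F2 and SFRP4 were also among the 8 steepest rises, at log2 fold changes of 9.04, 8.91, 8.44 and 8.44.

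WNT ligands bind Frizzled receptors, and 10 of 14 tested ligand genes rose while none was called lower (median 3.21). In WNT8B the ESC libraries held 3 counts each, and NECs held 586 and 231 counts, a ratio of 129-fold (95% interval 58.99 to 352). WNT1, a signal of the dorsal midline, had no count in ESCs and 7.997 and 1.30 CPM in NECs, at least 33.2-fold higher. WNT7B had 0.159 and 0.243 CPM in ESCs against 27.97 and 8.99 CPM in NECs (log2 fold change 6.45, adjusted p = 6.85e-04), and WNT4 had 0.106 and 0.0808 CPM in ESCs against 8.09 and 7.33 CPM in NECs (log2 fold change 6.31, adjusted p = 5.21e-05). Every risen ligand except WNT2B was higher in NEC replicate 1 than in replicate 2, by more than 2-fold in 5 of the 14 on a log2(CPM + 1) scale. WNT5A was close to level (log2 fold change 0.02, adjusted p = 0.91). WNT1, WNT2B, WNT4, WNT5A and WNT7B were named after their values were seen. Of 50 tested WNT receptors, antagonists and targets, 15 rose and 3 fell. SFRP4, a secreted antagonist, had 3 and 2 counts in ESCs and a ratio of 361-fold (95% interval 155 to 1114). SFRP2, another, had 220.02 and 215 CPM in the ESC libraries and 465 and 452 CPM in the NEC libraries and passed the adjusted p but not the fold threshold (log2 fold change 1.07, adjusted p = 1.95e-04). The receptor FZD5 fell (log2 fold change -2.83, adjusted p = 5.03e-05), as did RSPO1, which amplifies WNT signals (log2 fold change -3.75, adjusted p = 0.00124).

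FGF ligands differed in direction, and 7 of 15 tested fell while 2 rose (median -1.06). The fallen members numbered 7 with any library left out, but the median was -0.23 without ESC replicate 1 and -0.24 without ESC replicate 2, where 18 ligands were tested. FGF2, the growth factor on which ESC cultures depend, had 159 and 161 CPM in the ESC libraries and 21.3 and 26.6 CPM in the NEC libraries (log2 fold change -2.74 ± 0.13 (SE), adjusted p = 2.64e-05). FGF8 had 13.2 and 19.7 CPM in ESCs against 2.01 and 3.20 CPM in NECs (log2 fold change -2.65, adjusted p = 5.80e-04). Both ESC values lay above both NEC values for each ligand. On the receiving side, 6 of 24 receptors and feedback genes rose and 1 fell. FGFR3 rose (log2 fold change 1.89, adjusted p = 1.11e-04) while FGFR4 fell (log2 fold change -1.88, adjusted p = 2.29e-04). FLRT3, a membrane partner of FGF receptors, also rose (log2 fold change 2.96, adjusted p = 5.47e-05), and so did DUSP6, a phosphatase that FGF signals induce (log2 fold change 2.12, adjusted p = 2.34e-04).

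In the NODAL, activin and TGF-beta list 12 of 40 fell and 7 rose, with a median of 0.10. The list was split rather than shifted. FOXH1, the nuclear partner of SMADs in this pathway, fell (log2 fold change -2.92, adjusted p = 6.69e-05), and LTBP2, a matrix protein that resembles the binding proteins of latent TGF-beta, rose (log2 fold change 2.40, adjusted p = 2.53e-04). In the BMP list 14 of 35 rose and 1 fell. BMP7 had 10.6 and 7.60 CPM in the ESC libraries and 100.3 and 96.6 CPM in the NEC libraries (log2 fold change 3.45 ± 0.16 (SE), adjusted p = 2.80e-05). BMP5 rose too (log2 fold change 7.29, adjusted p = 9.38e-05). The member that fell was BAMBI, a decoy receptor (log2 fold change -2.84, adjusted p = 1.11e-04), and the BMP target ID1 had 49.8 and 52.5 CPM in ESCs against 29.4 and 9.28 CPM in NECs. The NEC replicates differed in ID1, and its fall met the fold threshold only without NEC replicate 1 (log2 fold change -2.46) or with the replicate number in the fit (-1.59).

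NOTCH signalling passes between touching cells, where DLL and JAG ligands free the NOTCH receptor's inner part to act with RBPJ on HES and HEY genes. Of 32 tested members, 14 rose and 1 fell (median 0.84). The ligand DLL1 had 0.847 and 1.01 CPM in the ESC libraries and 78.7 and 66.9 CPM in the NEC libraries (log2 fold change 6.27 ± 0.17 (SE), adjusted p = 9.60e-06). HES5 had no count in ESCs and 27.3 and 24.02 CPM in NECs, at least 183-fold higher. HES4 had 1.43 and 0.606 CPM in ESCs against 51.9 and 36.6 CPM in NECs (log2 fold change 5.49, adjusted p = 7.27e-05), and HES1 had 19.4 and 14.1 CPM in ESCs against 34.4 and 33.02 CPM in NECs, below the fold threshold (log2 fold change 1.01, adjusted p = 0.0024). The receptors NOTCH1, NOTCH2 and NOTCH3 had log2 fold changes of 0.17, 0.41 and 0.44 and were not called. LFNG, a glycosyltransferase that tunes NOTCH receptors, had 11.8 and 11.04 CPM in ESCs against 132 and 94.6 CPM in NECs (log2 fold change 3.31, adjusted p = 4.61e-05), and DTX4, an E3 ligase of the Deltex family, had 34.1 and 33.4 CPM in ESCs against 340.4 and 289 CPM in NECs (log2 fold change 3.22, adjusted p = 1.38e-05). Besides DLL1, the ligand genes DLL3 and JAG1 and the ligand-like DNER were called higher. HEY2 was the member that fell (log2 fold change -2.21, adjusted p = 0.00153). The genes of this pathway other than DLL1 and HES5 were named after their values were seen.

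The bases before the starts of HES5, HES4 and HES1 are shown because these targets share a motif near one position. They come from RefSeq promoter sequences on GRCh38.p14, from 110 to 31 bases before the annotated start, and capitals mark GTGGGAA, the core bound by RBPJ, searched on both strands.
HES5: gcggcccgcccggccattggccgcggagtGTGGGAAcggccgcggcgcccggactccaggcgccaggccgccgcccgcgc
HES4: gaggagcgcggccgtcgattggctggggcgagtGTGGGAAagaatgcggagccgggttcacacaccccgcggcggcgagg
HES1: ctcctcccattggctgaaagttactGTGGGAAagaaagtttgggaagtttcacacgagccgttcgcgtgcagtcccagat
The stretches lie at chr1:2530294-2530373 on the minus strand, chr1:1000128-1000207 on the minus strand and chr3:194136038-194136117 on the plus strand. The motif began 81, 77 and 85 bases before the start. Within the 250 bases before 1 start per gene, it was found in 5 of 29 genes of the list with a sequence, namely HES1, HES4, HES5, HEYL and HEY2, against 5.46% of all 27305 promoters. Of these 5 genes, HES4, HES5 and HEYL were called higher, HES1 was not called and HEY2 was called lower. A match describes the letters only.

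Hedgehog proteins signal through the cilium to GLI factors. Of 23 tested members, 11 rose and none was called lower (median 1.22), and the summed level was 403 and 389 CPM in the ESC libraries and 1448 and 1165 CPM in the NEC libraries. The coreceptor BOC had 5.14 and 4.16 CPM in the ESC libraries and 342 and 200.2 CPM in the NEC libraries (log2 fold change 5.88 ± 0.31 (SE), adjusted p = 4.26e-05). GLI3, which often acts as a repressor, had 37.7 and 27.3 CPM in ESCs against 176 and 152 CPM in NECs (log2 fold change 2.34, adjusted p = 1.14e-04). The ligand SHH stayed near 1 CPM or under in all 4 libraries, and GLI1, a transcript that rises with Hedgehog activity, had 12.2 and 11.4 CPM in ESCs against 5.10 and 5.995 CPM in NECs (log2 fold change -1.08, adjusted p = 0.00251), in the direction opposite to the coreceptors. SHH and GLI1 were named after their values were seen.

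Retinoic acid is made by ALDH1A enzymes, carried by CRABP proteins and removed by CYP26 enzymes. Of 23 tested members, 8 rose and 3 fell. CRABP1 had 109.8 and 128 CPM in the ESC libraries and 1508 and 702 CPM in the NEC libraries (log2 fold change 3.22, adjusted p = 5.21e-04), and ALDH1A3 had 20.6 and 19.8 CPM in ESCs against 1.12 and 0.486 CPM in NECs (log2 fold change -4.67, adjusted p = 9.54e-05). CYP26A1 passed the adjusted p only (log2 fold change 0.81, adjusted p = 0.00309). In the insulin and IGF list 5 of 18 rose and none was called lower. IGFBP5, which binds IGFs outside the cell, had 11.01 and 15.04 CPM in the ESC libraries and 651 and 798 CPM in the NEC libraries (log2 fold change 5.79 ± 0.20 (SE), adjusted p = 1.37e-05). IGF2 rose as well (log2 fold change 5.76, adjusted p = 7.73e-05), while IGFBP2 differed between the ESC libraries (478 and 215 CPM) and did not pass (log2 fold change 0.66, adjusted p = 0.132).

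**Figure D2:**
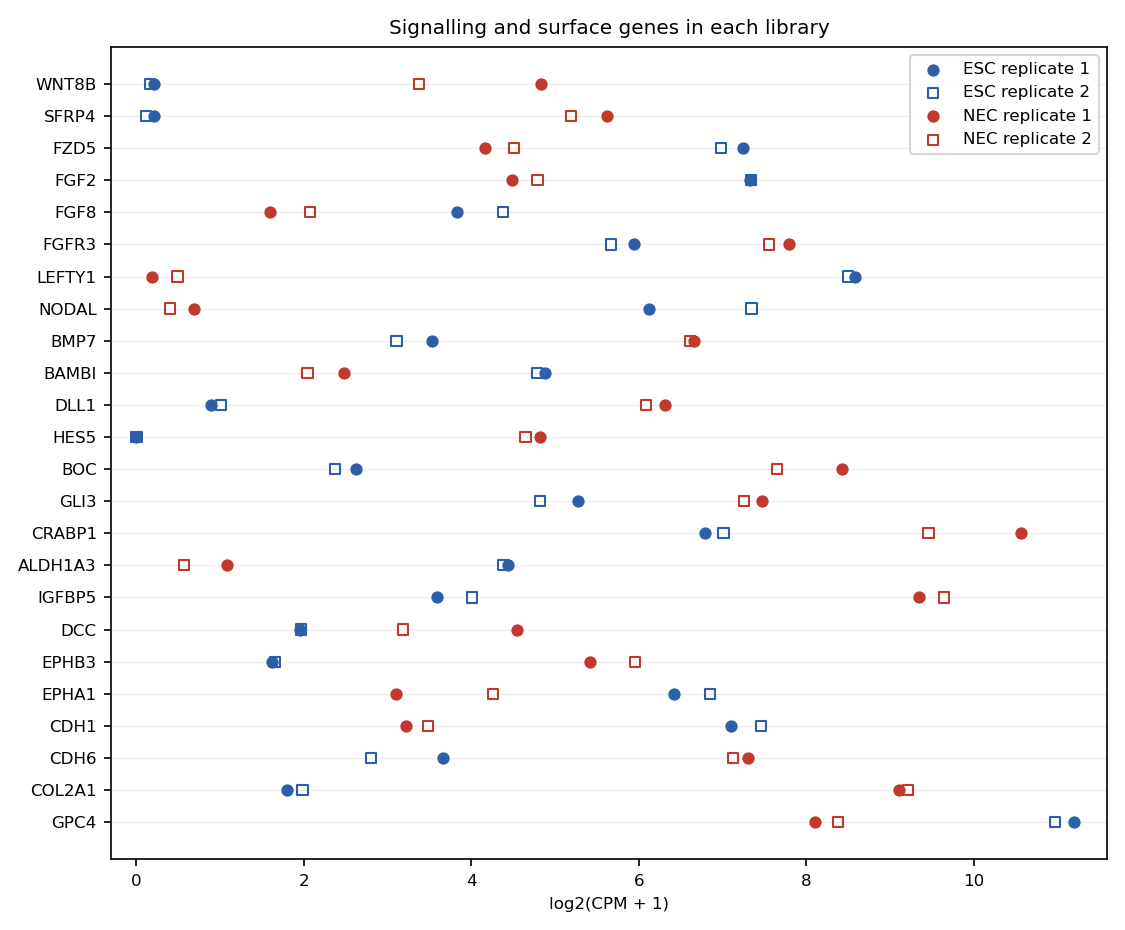
The horizontal axis is log2(CPM + 1), each row is a gene, and each of the 4 symbols is a library (blue ESC, red NEC, filled replicate 1, open replicate 2). In every gene drawn the ESC and NEC libraries did not overlap, with HES5 at 0 CPM in both ESC libraries and FGF2 and GPC4 higher in ESCs.

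Axon guidance genes steer growing neurites. In the netrin, SLIT and other axon guidance list 20 of 39 rose and 5 fell. NTRK2, the receptor for the neurotrophin BDNF, had 1.06 and 0.364 CPM in the ESC libraries and 120.4 and 95.5 CPM in the NEC libraries (log2 fold change 7.32 ± 0.32 (SE), adjusted p = 2.09e-05). The netrin receptor DCC had 2.86 and 2.91 CPM in ESCs against 22.3 and 8.10 CPM in NECs (log2 fold change 2.39, adjusted p = 0.00536), and without NEC replicate 1 its log2 fold change of 1.49 no longer passed. LRRN2, a leucine-rich repeat membrane protein, fell (log2 fold change -1.66, adjusted p = 1.72e-04). Without NEC replicate 2 the list had 3 falling members instead of 5. Among ephrins and Eph receptors 9 of 22 rose and 3 fell, with EPHB3 at 2.06 and 2.14 CPM in ESCs against 41.8 and 61.05 CPM in NECs and EPHA1 at 84.8 and 114 CPM in ESCs against 7.58 and 18.1 CPM in NECs. EPHA2 was close to level (log2 fold change 0.14, adjusted p = 0.257). Semaphorins, plexins and neuropilins had 8 of 30 higher and 2 lower, led by SEMA5B (3.56) and SEMA6A (-1.84). Teneurins, contactins and neurexins, which join neurons at contacts, had 11 of 20 higher and 2 lower.

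Cadherins hold like cells together. Of 19 tested classical and other cadherins, 13 rose and 3 fell (median 2.22). CDH1, the E-cadherin of epithelia, had 136 and 175 CPM in the ESC libraries and 8.28 and 10.2 CPM in the NEC libraries (log2 fold change -4.07 ± 0.17 (SE), adjusted p = 2.02e-05), and CDH6 had 11.6 and 5.98 CPM in the ESC libraries and 156 and 138 CPM in the NEC libraries (log2 fold change 4.09 ± 0.28 (SE), adjusted p = 9.54e-05). Both ESC values lay above both NEC values for CDH1 and below them for CDH6. The list of epithelial surface genes had 21 of 38 lower and 2 higher (median -1.57), and claudins, which seal tight junctions, had 7 of 16 lower and 2 higher. CLDN7 had 15.6 and 25.9 CPM in ESCs against 2.24 and 1.26 CPM in NECs (log2 fold change -3.58, adjusted p = 3.66e-04).

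Clustered protocadherins give neurons individual surface codes. Of 45 tested, 23 rose and none fell, but the clusters differed. All 18 tested genes of the gamma cluster rose, between 2.56 and 2.88 on the log2 scale, and PCDHGB6 had 39.7 and 43.3 CPM in the ESC libraries and 315 and 294 CPM in the NEC libraries. Of 12 beta cluster genes 5 rose, and none of 13 alpha cluster genes named PCDHA with a number was called (-0.34 to -0.04). Genes named PCDHAC were not in that count, and the lowest log2 fold change in the whole list was -0.38. Genes of the gamma cluster share their last exons, and so do those of the alpha cluster, so reads from the shared part count for every member and their values are not independent. Within NEC replicate 1 the gamma members ran only from 193 to 315 CPM. Which of these members changed cannot be read from this table.

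Matrix genes changed in both directions. Collagens had 7 of 38 higher and 7 lower. COL2A1 (chr12:48366748-48398269 in GRCh37), the main collagen of cartilage and the notochord, had 2.49 and 2.95 CPM in the ESC libraries and 549.6 and 592 CPM in the NEC libraries (log2 fold change 7.70 ± 0.14 (SE), adjusted p = 5.18e-06), while COL9A3 had 140.2 and 100.2 CPM in ESCs against 13.2 and 13.9 CPM in NECs (log2 fold change -3.15, adjusted p = 5.13e-05). Proteoglycans and matrix glycoproteins had 12 of 50 higher and 4 lower. SMOC1, which binds calcium and modulates BMP, had 1.48 and 0.849 CPM in ESCs against 287 and 243 CPM in NECs (log2 fold change 7.87, adjusted p = 9.60e-06). GPC4, a cell surface heparan sulphate proteoglycan, was among the 8 genes with the largest loss of CPM, with 2333 and 1999.8 CPM in the ESC libraries and 273 and 331 CPM in the NEC libraries (log2 fold change -2.84, adjusted p = 4.87e-05). Laminins had 3 of 11 lower and none higher, LAMA2 leading (log2 fold change -5.64, adjusted p = 2.77e-05). Integrins had 4 of 20 higher and 2 lower, with ITGB5, a vitronectin receptor subunit, at 354 and 424 CPM in ESCs against 80.95 and 95.04 CPM in NECs (log2 fold change -2.14, adjusted p = 7.06e-05).

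ADAM and ADAMTS proteases had 7 of 31 in each direction, ADAMTS6 rising (log2 fold change 3.33, adjusted p = 1.22e-04) and ADAMTS1 falling (log2 fold change -2.08, adjusted p = 3.60e-05). TIMP3 and TIMP4, inhibitors of matrix metalloproteinases, had opposite calls (2.62 and -3.52 on the log2 scale). Kinesins, motors that walk on microtubules, had 2 of 37 higher and 2 lower, fewer in percent than the background in both directions. KIF26B had 1.06 and 1.09 CPM in ESCs against 16.7 and 27.4 CPM in NECs (log2 fold change 4.35, adjusted p = 1.15e-04) and KIF1A, a carrier of synaptic vesicle precursors, had 683 and 709 CPM in ESCs against 139.7 and 202 CPM in NECs (log2 fold change -2.02, adjusted p = 2.42e-04), lower in NECs. Tubulins had 1 of 16 higher and 2 lower, near the background. Annexins and S100 proteins had 2 of 18 higher and 4 lower. ANXA3, a membrane-binding annexin, had 68.7 and 72.6 CPM in the ESC libraries and 3.46 and 4.42 CPM in the NEC libraries (log2 fold change -4.16 ± 0.14 (SE), adjusted p = 1.37e-05). Unclustered protocadherins had 6 of 13 higher and 2 lower, with PCDH8 at 1.38 and 1.46 CPM in ESCs against 21.2 and 18.1 CPM in NECs and PCDH10 at 21.2 and 24.4 CPM in ESCs against 2.90 and 1.70 CPM in NECs. In the Hippo list 2 of 23 rose and 2 fell, under the background. TEAD4, a DNA-binding partner of YAP, fell (log2 fold change -2.02, adjusted p = 1.31e-04) and AMOT, which binds YAP, rose (log2 fold change 2.70, adjusted p = 4.61e-05).

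The primary cilium is built by transport along its axoneme and is where Hedgehog signals are received. Its 54 tested genes were mostly higher by a small amount. With the fold threshold 9 rose (16.7%, against 11.4% of all genes) and none fell, and with the adjusted p alone 41 were higher and 2 lower, against 31.5% and 29.7% of all genes (median 0.87). RFX4, a transcription factor of ciliated neural cells, had 0.529 and 0.566 CPM in the ESC libraries and 76.5 and 68.2 CPM in the NEC libraries (log2 fold change 7.02 ± 0.16 (SE), adjusted p = 5.87e-06). FOXJ1, the regulator of motile cilia, had 2.49 and 1.496 CPM in ESCs against 15.5 and 7.21 CPM in NECs (log2 fold change 2.52, adjusted p = 0.00307). Of 12 tested symbols that begin with DNAH, mostly heavy chains of axonemal dyneins, 6 rose and none fell, though the summed level was 75.2 and 70.98 CPM in ESCs and 53.5 and 51.9 in NECs. That group includes an antisense transcript, DNAH10OS, and was chosen after the values of all 259 symbol families of at least 8 tested genes were seen, as was TTLL, enzymes that modify tubulin, with 4 of 9 higher and none lower.

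HOX genes assign the head-to-tail axis, and only 8 of 39 had enough counts to be tested. Of these, 7 rose, all of paralogue groups 1 to 4, and HOXB13 fell, a call that was lost without ESC replicate 2. HOXA2 had 0 and 1 counts in ESCs and 732 and 674 in NECs, a ratio of 1332-fold (95% interval 239 to 52629). Other members included HOXB2 with 0.106 and 0.0808 CPM in the ESC libraries and 25.3 and 11.9 CPM in the NEC libraries and HOXB13 under 1 CPM in each ESC library and with no count in NECs. EN2, of the midbrain and hindbrain border, had no count in ESCs and 5.80 and 1.01 CPM in NECs. PAX6, SOX2, HOXB2 and HOXB13 were named as defining markers or after their values were seen. PAX genes had 6 of 7 higher, with 1 and 0 counts of PAX8 in ESCs and a ratio of 768-fold (95% interval 137 to 30373). SOX genes had 6 of 16 higher and 2 lower, with SOX1 at 2.81 and 2.38 CPM in ESCs against 125 and 119.9 CPM in NECs (log2 fold change 5.57, adjusted p = 5.87e-06) and SOX15 at 23.98 and 21.4 CPM in ESCs against 0.935 and 2.11 CPM in NECs (log2 fold change -3.87, adjusted p = 1.85e-04). POU genes had 6 of 11 higher and 2 lower, and the TALE homeobox genes 4 of 9 higher and none lower. MEIS2 had 0.265 and 0.323 CPM in the ESC libraries and 94.98 and 82.4 CPM in the NEC libraries (log2 fold change 8.19, adjusted p = 5.87e-06).

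Smaller families of position and fate were mixed. IRX genes had 3 of 6 higher and 1 lower. IRX3, a neural tube patterning factor, had 0.741 and 0.889 CPM in the ESC libraries and 46.8 and 30.5 CPM in the NEC libraries (log2 fold change 5.54, adjusted p = 4.28e-05). MSX1, which BMP induces at dorsal borders, rose from under 1 CPM (0.159 and 0.162 CPM in ESCs against 23.1 and 5.87 CPM in NECs). LIM homeobox genes had 5 of 12 higher and 4 lower, with LHX5, of the forebrain and dorsal neural tube, at 0.265 and 0 CPM in ESCs against 23.1 and 17.8 CPM in NECs (log2 fold change 7.40, adjusted p = 1.40e-04). Forkhead genes had 8 of 31 higher and 7 lower, or 5 of each without ESC replicate 2, which also took the lower LIM homeobox genes to 2. T-box genes had 1 of 9 higher and 3 lower. In the proneural bHLH list 5 of 13 rose and 3 fell (1 without NEC replicate 2), with OLIG3, of the dorsal spinal cord and hindbrain, at 0.847 and 0.566 CPM in ESCs against 16.3 and 20.2 CPM in NECs (log2 fold change 4.71, adjusted p = 4.94e-05). AP-1 genes had 2 of 16 higher and 2 lower.

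ETS genes had 4 of 19 lower and none higher, with ETS1 at 106 and 105 CPM in ESCs against 28.5 and 4.86 CPM in NECs (log2 fold change -2.68, adjusted p = 0.0119). In the MYC family MYC fell (log2 fold change -2.69, adjusted p = 4.36e-04) and MYCN passed the adjusted p only, with 96.8 and 95.6 CPM in ESCs against 80.3 and 76.4 CPM in NECs (log2 fold change -0.30, adjusted p = 0.0211). The 473 tested ZNF-named zinc finger genes had 26 higher (5.50%) and 13 lower (2.75%), under the background of 11.4% and 9.68%. ZNF503, a corepressor of the brain, rose (log2 fold change 7.25, adjusted p = 2.21e-05) and ZNF488 fell (log2 fold change -5.36, adjusted p = 5.05e-04). Without NEC replicate 2 the lower count of this family was 24. Nuclear hormone receptors had 6 of 35 higher and 5 lower, or 3 lower without either ESC replicate. The glucocorticoid receptor NR3C1 had 74.4 and 57.7 CPM in ESCs against 1.12 and 3.36 CPM in NECs (log2 fold change -4.84, adjusted p = 1.55e-04).

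Of 36 Polycomb genes, 6 rose and 2 fell, and together these were close in percent to the 21.0% of all tested genes called either way. By the adjusted p alone the list leaned upwards, with 21 higher and 9 lower, against 31.5% and 29.7% of all genes (median 0.34). PHC1 had 769.8 and 764 CPM in the ESC libraries and 192 and 184 CPM in the NEC libraries (log2 fold change -2.03 ± 0.10 (SE), adjusted p = 3.22e-05), CBX8 rose (log2 fold change 3.67, adjusted p = 3.62e-04), and CBX7 passed the adjusted p only (log2 fold change 1.06, adjusted p = 0.00567). DNMT3B, a de novo DNA methyltransferase, had 1437 and 1675 CPM in the ESC libraries and 159 and 296 CPM in the NEC libraries (log2 fold change -2.77 ± 0.29 (SE), adjusted p = 4.42e-04), TET1 was lower by less (log2 fold change -0.95, adjusted p = 5.17e-04), and TET2 rose (log2 fold change 1.59, adjusted p = 0.00159), which it no longer did without ESC replicate 2 (1.28). Of 35 BAF and CHD remodellers 2 rose and 2 fell, among them the subunits SMARCD3 (log2 fold change 2.60, adjusted p = 7.26e-05) and BCL11A (log2 fold change -4.48, adjusted p = 9.97e-05). No gene was called among 17 of CTCF and cohesin (-0.61 to 0.59) or 18 histone deacetylases and sirtuins (-1.14 to 1.48). By the adjusted p alone these lists had 5 and 9 genes higher and 5 and 2 lower. For CTCF and cohesin these became 1 higher and 3 lower without ESC replicate 1, 1 of each without ESC replicate 2, and 3 lower without NEC replicate 1. Without NEC replicate 2 there were 2 deacetylases called higher.

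Among splicing regulators 11 of 53 rose and 4 fell. ESRP1, which sets epithelial splice forms, had 64.01 and 107 CPM in the ESC libraries and 2.43 and 1.94 CPM in the NEC libraries (log2 fold change -5.30 ± 0.31 (SE), adjusted p = 5.63e-05), RBM47 fell (log2 fold change -3.79, adjusted p = 3.63e-05), and the neural regulator CELF3 rose (log2 fold change 5.05, adjusted p = 2.73e-04). CELF4 stayed between 1.11 and 1.62 CPM in all libraries.

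No gene of the machinery of division was called. Of 47 DNA replication genes, 51 mitosis genes and 59 DNA repair genes, the log2 fold changes ran from -1.17 to 0.63, -0.75 to 0.88 and -0.91 to 0.85. By the adjusted p alone 7, 20 and 12 were higher and 17, 8 and 14 lower. These smaller counts moved with the libraries used, to 2, 13 and 4 higher and 12, 4 and 8 lower without ESC replicate 2, to 3, 16 and 5 higher and 14, 5 and 10 lower without ESC replicate 1, and to 25, 13 and 19 lower without NEC replicate 2. The summed level of mitosis genes was 7182 and 7204 CPM in the ESC libraries and 7744 and 8411 CPM in the NEC libraries. Of 27 G1 cyclins, kinases and inhibitors, 2 rose and 2 fell. CDKN1C, a CDK inhibitor, had 9.21 and 7.32 CPM in ESCs against 44.99 and 33.4 CPM in NECs (log2 fold change 2.251, adjusted p = 2.15e-04), while CCND1 and CCND2 were not called (-0.34 and 0.37). Among p53 targets and apoptosis genes 5 of 45 rose and 5 fell, with the survival gene BCL2 higher (log2 fold change 3.81, adjusted p = 1.75e-05) and the death-promoting PMAIP1 lower (log2 fold change -4.51, adjusted p = 6.43e-05).

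Several lists for making, folding and degrading proteins were lower in NECs, mostly by less than the fold threshold. Cytosolic ribosomal proteins, described further below, were not. Of 49 ribosome biogenesis genes, which make and assemble rRNA, 4 were called lower, but 46 were lower by the adjusted p alone and 1 higher (median -0.87). DDX21, a helicase of the nucleolus, had 538 and 577 CPM in the ESC libraries and 127 and 171 CPM in the NEC libraries (log2 fold change -1.90 ± 0.16 (SE), adjusted p = 1.81e-04). By the same measure 24 of 34 aminoacyl tRNA synthetases were lower and 1 higher (median -0.62), with TARS, the threonine enzyme, at 366 and 353 CPM in ESCs against 90.4 and 116 CPM in NECs (log2 fold change -1.80, adjusted p = 1.27e-04). Mitochondrial ribosomal proteins had 55 of 75 lower and 1 higher (median -0.52), and proteasome subunits 34 of 44 lower and 4 higher (median -0.54). Chaperones had 25 of 41 lower and 5 higher. The background for these counts was 29.7% lower and 31.5% higher. When each library was left out in turn the ribosome biogenesis genes lower by adjusted p alone numbered 41 to 47, and those past the fold threshold 1 to 7, the fewest without NEC replicate 1 and the most without NEC replicate 2.

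The summed levels of these lists were close between replicates. Ribosome biogenesis genes summed to 9489 and 9934 CPM in the ESC libraries and 5593 and 6458 CPM in the NEC libraries, tRNA synthetases to 5747 and 5763 CPM in the ESC libraries and 3445 and 3637 CPM in the NEC libraries, and proteasome subunits to 8284 and 8553 CPM in the ESC libraries and 5409 and 5963 CPM in the NEC libraries. No library of one cell type reached the range of the other in these lists. In the amino acid stress list 4 of 39 fell and none rose. SLC7A5, which carries large neutral amino acids into cells, had 919.96 and 1147 CPM in the ESC libraries and 101 and 109 CPM in the NEC libraries (log2 fold change -3.30 ± 0.15 (SE), adjusted p = 2.39e-05). Over all 264 tested solute carriers 26 rose (9.85%) and 34 fell (12.9%), near the background. SLC17A9, a vesicle nucleotide carrier, had 40.02 and 44.2 CPM in ESCs against 1.17 and 1.42 CPM in NECs and SLC16A14, an orphan relative of the monocarboxylate carriers, 0.847 and 1.62 CPM in ESCs against 21.4 and 14.9 CPM in NECs.

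Translation factors leaned the same way by the adjusted p alone, with 36 of 67 lower and 7 higher (median -0.33). Their summed level went the other way, at 21405 and 20929 CPM in the ESC libraries and 26943 and 24994 CPM in the NEC libraries. The list includes EEF1A1 and EIF5AL1, which are described below with the genes that have close copies. The list for one carbon, serine and nucleotide synthesis had 20 of 40 lower and 4 higher by the adjusted p alone. It had 2 genes called, both higher. GLDC, which cleaves glycine, had 174 and 178 CPM in the ESC libraries and 94.4 and 95.9 CPM in the NEC libraries and passed the adjusted p only (log2 fold change -0.88, adjusted p = 2.73e-04). Small nucleolar RNA host genes had 9 of 13 lower and 1 higher by the adjusted p alone, of which 2 passed the fold threshold.

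**Figure D3:**
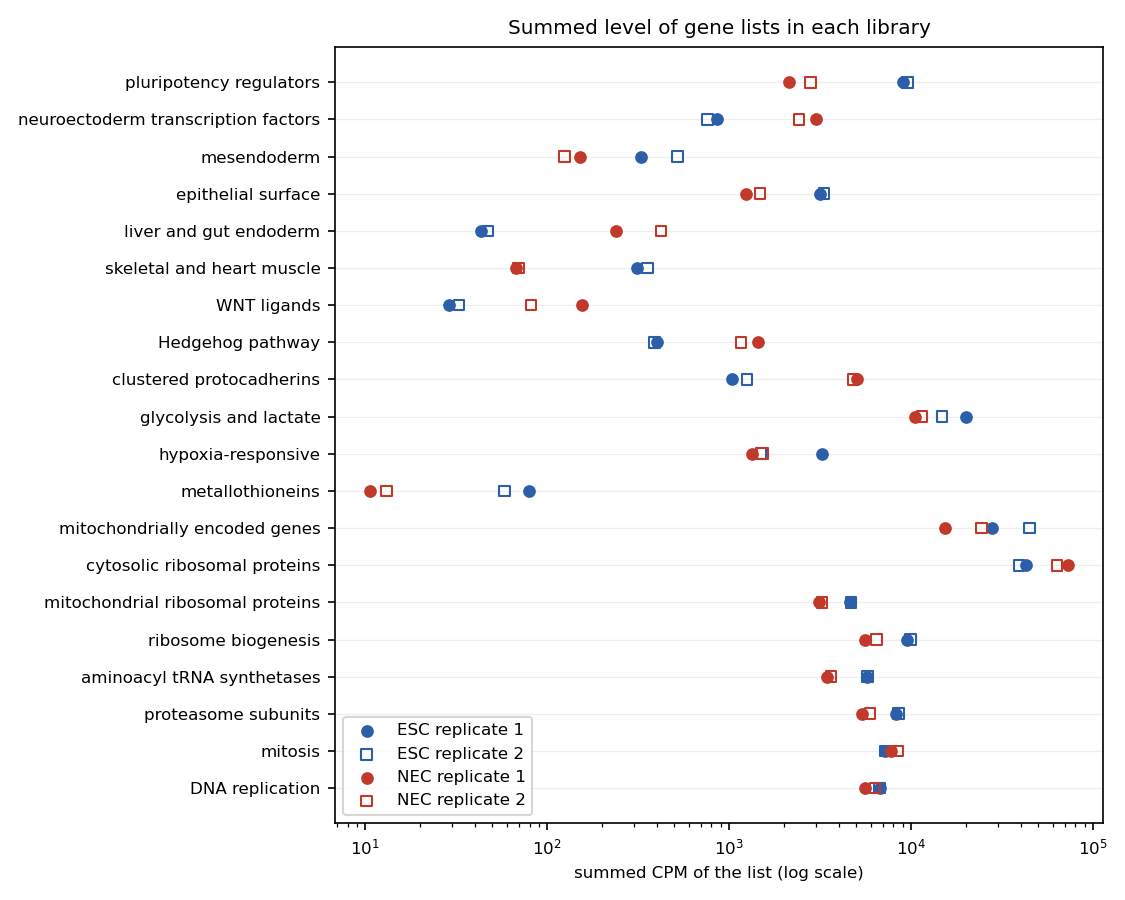
The horizontal axis is the summed CPM of all genes of a list on a log scale, with 1 symbol for each library (blue ESC, red NEC, filled replicate 1, open replicate 2). ESC replicate 1 stands apart in the hypoxia-responsive list, and the replicates of each cell type stand apart in the mitochondrially encoded genes.

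Hypoxia-responsive and glycolysis genes were lower in NECs, but a good part of this rested on 1 library. Glycolysis turns glucose into pyruvate and lactate, and many of its enzymes are induced through HIF1A when oxygen is low. Of 28 hypoxia-responsive genes 11 fell and none rose (median -1.13), and of 29 glycolysis and lactate genes 10 fell and none rose (median -0.89). The hypoxia list summed to 3244 and 1498 CPM in the ESC libraries and 1332 and 1520.3 CPM in the NEC libraries, so that ESC replicate 2 lay within the range of the NECs. In 18 of its 28 genes ESC replicate 1 exceeded ESC replicate 2 by more than 2-fold on the log2(CPM + 1) scale, as did 93 of all 17555 tested symbols. Without ESC replicate 1 the hypoxia list had 5 lower genes and a median of -0.01, and glycolysis had 5 lower genes and a median of -0.61. Without ESC replicate 2 the hypoxia list had 16 lower genes and a median of -1.84.

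Some enzymes were lower whichever ESC library was used. PDK1, which closes the way from pyruvate into mitochondria, had 174 and 122 CPM in the ESC libraries and 12.5 and 11.1 CPM in the NEC libraries (log2 fold change -3.65 ± 0.20 (SE), adjusted p = 4.26e-05), and without ESC replicate 1 its log2 fold change was -3.40. LDHA, which makes lactate, had 1282 and 743 CPM in the ESC libraries and 139 and 174 CPM in the NEC libraries (log2 fold change -2.69 ± 0.27 (SE), adjusted p = 3.77e-04), and -2.27 without ESC replicate 1. For both genes all ESC values lay above all NEC values. SLC16A3, which exports lactate, had 133 and 13.1 CPM in ESCs against 3.37 and 4.33 CPM in NECs (log2 fold change -4.23, adjusted p = 0.0125), and its log2 fold change was -1.78 without ESC replicate 1. Its ESC replicates differed by more than ESC replicate 2 and the NECs did. BHLHE40 had 52.99 and 5.66 CPM in ESCs against 1.78 and 3.20 CPM in NECs (log2 fold change -3.53, adjusted p = 0.0211) and lost its call without ESC replicate 1 (-1.20) or NEC replicate 1 (-3.17). The glucose carrier SLC2A3 was not called (log2 fold change -0.21, adjusted p = 0.385), and its direction turned without ESC replicate 1 (0.08). ENO1, a glycolysis enzyme among the 8 largest losses of CPM, passed the adjusted p only, with 3546 and 2814 CPM in ESCs against 1321 and 1567 CPM in NECs (log2 fold change -1.14, adjusted p = 0.00176).

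**Figure D4:**
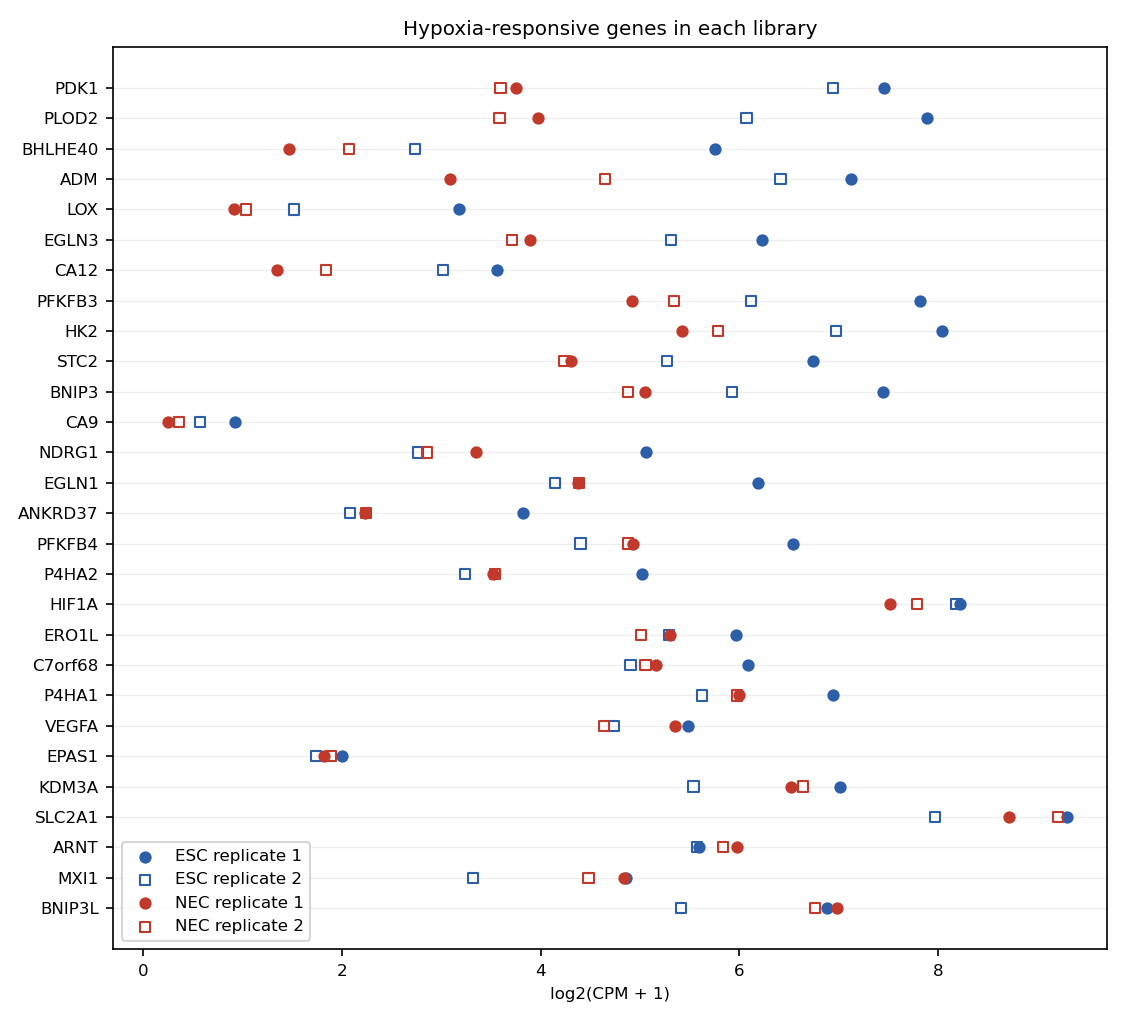
Each row is a hypoxia-responsive gene, ordered by fold change, the horizontal axis is log2(CPM + 1), and the 4 symbols are the libraries. In PDK1, PLOD2 and ADM at the top both ESC libraries lie to the right of both NEC libraries, whereas in EGLN1, ANKRD37 and PFKFB4 only ESC replicate 1 (filled blue) lies apart.

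Mitochondrial transcripts differed between replicates as well. The 12 mitochondrially encoded genes had log2 fold changes from -1.30 to -0.43 (median -1.05), 8 of them lower by the adjusted p alone and none called. They summed to 27701 and 44898 CPM in the ESC libraries and 15451 and 24458 CPM in the NEC libraries, with replicate 2 above replicate 1 in both cell types. Without NEC replicate 2 there were 5 calls, and 3 without ESC replicate 1. Without ESC replicate 2 only 1 gene was lower by the adjusted p (median -0.60), and 3 were without NEC replicate 1 (median -0.72). MT-CO1, a subunit of cytochrome oxidase, had 6928 and 10782 CPM in the ESC libraries and 4924 and 7427 CPM in the NEC libraries (log2 fold change -0.52, adjusted p = 0.16), so the groups overlapped. Nuclear subunits of oxidative phosphorylation had 1 of 78 lower and none higher, and the TCA cycle 2 of 30 higher and 3 lower. IDH2 rose (log2 fold change 1.66, adjusted p = 1.18e-04) and ME1 fell (log2 fold change -2.23, adjusted p = 0.00102).

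Metallothioneins, which bind zinc and copper, had 5 of 6 tested genes lower. MT1E had 13.5 and 11.4 CPM in the ESC libraries and 0 and 0.567 CPM in the NEC libraries (log2 fold change -5.34 ± 0.67 (SE), adjusted p = 8.72e-04), and MT1G had 83 and 72 counts in ESCs and 0 and 1 in NECs. The list summed to 78.99 and 58.2 CPM in the ESC libraries and 10.6 and 13.04 CPM in the NEC libraries. These genes are close copies of each other, so reads may be split between them. TXNIP, an inhibitor of thioredoxin and of glucose uptake, went the other way, at 11.1 and 5.13 CPM in ESCs against 289 and 131 CPM in NECs (log2 fold change 4.72, adjusted p = 4.45e-04). In lipid metabolism none of 29 genes for cholesterol synthesis and uptake was called higher and 1 was called lower. By the adjusted p alone 14 were higher and 3 lower, and without ESC replicate 2 the higher genes numbered 7. SCD5, a desaturase, rose (log2 fold change 3.69, adjusted p = 3.30e-05) and CPT1A, which admits fatty acids to mitochondria, fell (log2 fold change -4.60, adjusted p = 6.94e-05). CYP2B6, a drug-metabolising enzyme, had 9.95 and 15.4 CPM in ESCs and no count in NECs, at least 96.7-fold lower.

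Cytosolic ribosomal proteins went the other way, unequally. Of 79 tested, 17 rose and 1 fell (median 0.54), and they summed to 42976 and 39203 CPM in the ESC libraries and 72912 and 63445 CPM in the NEC libraries. RPSA had 64.6 and 63.02 CPM in the ESC libraries and 1335 and 1238 CPM in the NEC libraries (log2 fold change 4.33 ± 0.12 (SE), adjusted p = 9.60e-06), while RPL41 fell (log2 fold change -2.49, adjusted p = 2.02e-05). Ribosomal protein genes have many processed pseudogenes, which are intron-free copies with near-identical sequence, and the calls went with their number. Among 36 genes with 0 to 9 pseudogenes named after them in the annotation, none rose (median 0.17). Among 17 with 10 to 19, 3 rose (median 0.65), and among 26 with 20 or more, 14 rose (median 1.54). RPSA has 73 such copies.

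Some other genes with many copies also rose. EEF1A1, the elongation factor, with 45 named processed pseudogenes, had 802 and 745 CPM in the ESC libraries and 9569 and 8278 CPM in the NEC libraries (log2 fold change 3.53 ± 0.17 (SE), adjusted p = 3.30e-05), the largest gain of CPM in the table. HNRNPA1, with 72, rose too (log2 fold change 2.28, adjusted p = 5.07e-05), and RPS2, RPS3A and RPL7A were also among the 8 largest gains. TUBA1A and AL593851.1 were among these gains as well, but their numbers of copies are not given here. Over all protein-coding genes, 20% of 100 genes with 10 or more named processed pseudogenes were called higher, against 0.599% of 167 with 5 to 9, 2.39% of 1467 with 1 to 4 and 11.9% of 12858 with none. The 100 genes, 20 of them called higher, include ribosomal protein genes counted above. There, 3 of 17 with 10 to 19 copies and 14 of 26 with 20 or more rose, so ribosomal protein genes were most of the 20. The 20% is therefore not independent of those counts. It does not describe the other genes with many copies, and no link between calls and copy number is read for them. Processed pseudogenes of any parent gene, which were not matched to the genes above, leaned towards lower levels in NECs. Of 30 tested processed pseudogenes 11 fell and 4 rose, and EIF5AL1, a gene nearly identical to the translation factor EIF5A, had 107 and 99.2 CPM in the ESC libraries and 0.608 and 1.78 CPM in the NEC libraries (log2 fold change -6.38, adjusted p = 3.14e-05). Of 12 tested NBPF genes, recent duplicates that are close to each other in sequence, 11 rose and none fell, and of 11 AGAP symbols 7 rose and none fell. Both families were chosen after their values were seen. Whether the reads of the ESC lane and the NEC lane were aligned with the same settings is not given in the sources used here. Assignment of reads between such copies is uncertain, its part in these results was not tested, and no biological change is read from these genes.

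**Figure D5:**
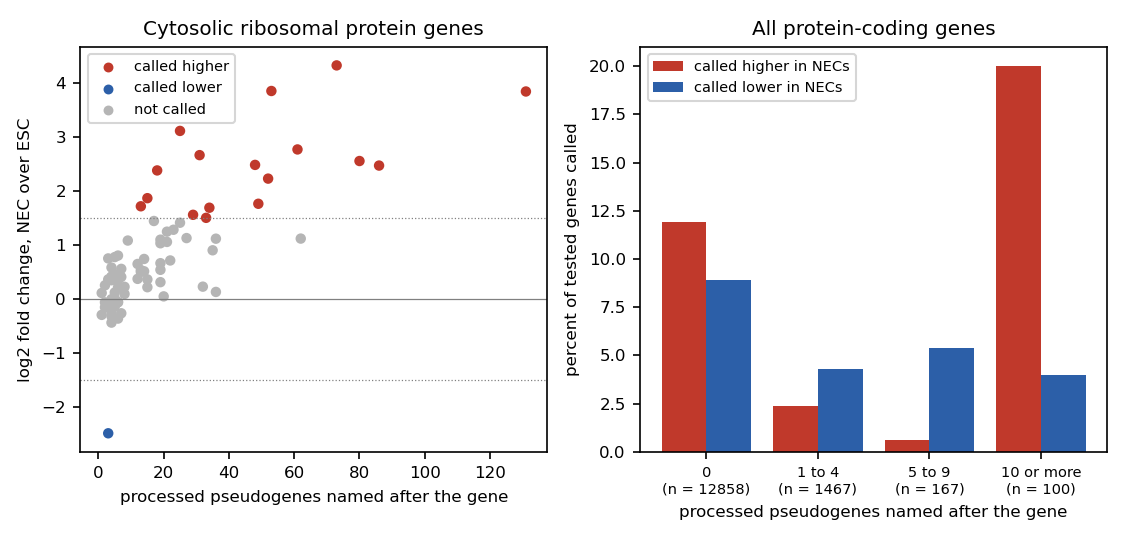
Left, the log2 fold change of each cytosolic ribosomal protein gene against the number of annotated processed pseudogenes named after it, with dotted lines at the fold threshold. Right, the percent of protein-coding genes called higher (red) or lower (blue) by the number of such pseudogenes. Genes called higher on the left have 13 or more copies, and 20% of the genes with 10 or more copies on the right were called higher. The right panel includes ribosomal protein genes, which were most of the genes called higher among those with 10 or more copies.

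Channels and receptors of excitable cells changed in both directions. Potassium channels had 21 of 65 higher (32.3%) and 11 lower (16.9%), both above the background, and their summed level was 333 and 319 CPM in the ESC libraries and 394 and 380.02 CPM in the NEC libraries. KCNC1, a channel of fast-firing neurons, had 0.318 and 0 CPM in ESCs against 10.7 and 15.9 CPM in NECs (log2 fold change 6.52, adjusted p = 3.91e-04), and KCNG1, which lost its call without ESC replicate 2 or NEC replicate 2, had 33.8 and 51.8 CPM in ESCs against 15.3 and 11.7 CPM in NECs (log2 fold change -1.67, adjusted p = 0.00125). Calcium channels had 9 of 23 higher and 4 lower, with CACNG7 at 10.1 and 5.58 CPM in ESCs against 142 and 129 CPM in NECs and CACNA2D1 at 47.9 and 54.2 CPM in ESCs against 7.25 and 6.89 CPM in NECs. Sodium channels had 6 of 13 higher and 1 lower. Glutamate receptors had 7 of 20 higher and 3 lower, with GRM3 higher (log2 fold change 4.44, adjusted p = 1.69e-04), whereas GABA and glycine receptors had 7 of 15 lower and 4 higher. Of 58 neuron and synapse genes 20 rose and 3 fell. DCX, of young migrating neurons, had 8.89 and 7.20 CPM in ESCs against 40.6 and 29.98 CPM in NECs (log2 fold change 2.14, adjusted p = 2.59e-04), SHANK1, a scaffold of synapses, rose (log2 fold change 4.80, adjusted p = 6.27e-05), and GAD1, which makes GABA, fell (log2 fold change -2.58, adjusted p = 2.52e-04). Of 30 tested genes of radial glia and neural progenitor structure 12 rose and 2 fell. FABP7, of radial glia, had 2.12 and 2.06 CPM in ESCs against 50.8 and 79.5 CPM in NECs (log2 fold change 4.96, adjusted p = 4.42e-05), while the filament gene VIM was level (log2 fold change 0.05, adjusted p = 0.827), with a sign that turned without ESC replicate 2 or NEC replicate 1. PROM1, of the same list, fell from 116 and 100.4 CPM in ESCs to 24.7 and 33.1 CPM in NECs (log2 fold change -1.90, adjusted p = 1.91e-04).

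Markers of other tissues were present in the NEC libraries. Of 13 tested liver and gut endoderm genes 12 rose and none was called lower (median 6.15), and the 18 genes of the list summed to 43.2 and 47.2 CPM in the ESC libraries and 239 and 422 CPM in the NEC libraries. FGA, the fibrinogen alpha chain, had no count in ESCs and 25.9 and 65.7 CPM in NECs, at least 327-fold higher. TTR, the thyroxine carrier, also had none in ESCs and 10.99 and 20.98 CPM in NECs. APOA1 had 1.16 and 0.647 CPM in the ESC libraries and 62.8 and 78.95 CPM in the NEC libraries (log2 fold change 6.33 ± 0.25 (SE), adjusted p = 1.53e-05) and AFP had 9.0 and 9.66 CPM in ESCs against 44.9 and 104 CPM in NECs (log2 fold change 3.0, adjusted p = 9.88e-04). These 4 genes were all higher in NEC replicate 2 than in replicate 1. ALB, the defining liver marker, stayed under 1 CPM in all 4 libraries. The endoderm regulators SOX17 and FOXA2 were low. They belong to the mesendoderm list, where 12 of 23 tested genes fell and 4 rose. SOX17 had 1.27 and 5.09 CPM in ESCs against 0.748 and 0.324 CPM in NECs and FOXA2 5.14 and 13.4 CPM in ESCs against 2.67 and 1.62 CPM in NECs. TTR, APOA1, AFP, ALB, SOX17 and FOXA2 were named after their values were seen, and the part of other cells in the NEC cultures was not tested.

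Muscle genes had 6 of 14 tested members lower and none higher. ACTC1, the actin of heart muscle, had 119 and 132 CPM in the ESC libraries and 1.31 and 2.35 CPM in the NEC libraries (log2 fold change -6.08 ± 0.22 (SE), adjusted p = 1.41e-05). Without ESC replicate 1 or without NEC replicate 2 the list also had 2 risen members. In the mesenchyme and fibroblast list 7 of 20 rose and 5 fell (3 without either NEC replicate), with COL3A1 higher (0.0529 and 0.970 CPM in ESCs against 139 and 85.4 CPM in NECs) and TAGLN, an actin-binding protein of smooth muscle, lower (752 and 749 CPM in ESCs against 88.6 and 135 CPM in NECs). In the blood and endothelium list 4 of 8 rose and 2 fell, with KDR, the VEGF receptor, at 153 and 219 CPM in ESCs against 14.7 and 21.3 CPM in NECs (log2 fold change -3.37, adjusted p = 1.04e-04). Trophoblast genes had 2 of 7 higher and 4 lower.

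The replicates differed along lines of function, and these differences are given with no test. In 6 of 23 mesendoderm genes ESC replicate 2 exceeded ESC replicate 1 by more than 2-fold on the log2(CPM + 1) scale, as did 28 of all tested symbols. EOMES, a regulator of mesendoderm, had 15.3 and 45.8 CPM in the ESC libraries and 0.468 and 0.365 CPM in the NEC libraries (log2 fold change -6.197, adjusted p = 5.17e-04). In the mesendoderm list 12 genes fell and 4 rose. Among the risen members, APLNR had 1.16 and 2.26 CPM in ESCs against 32.8 and 20.4 CPM in NECs (log2 fold change 3.91, adjusted p = 2.65e-04). Without ESC replicate 2 the list had 7 fallen members and a median of -1.23 in place of 12 and -1.90. NEC replicate 1 exceeded NEC replicate 2 in the same way in 10 of 25 neural crest genes. It did so in 10 of 46 genes of the neuroectoderm transcription factor list and in 128 of all tested symbols. PAX3, of dorsal neural tube and crest, had 0.265 and 0.323 CPM in the ESC libraries and 66.2 and 17.9 CPM in the NEC libraries (log2 fold change 7.11, adjusted p = 7.81e-04), and ZIC1, also dorsal, had 0.106 and 0.243 CPM in ESCs against 24.1 and 6.04 CPM in NECs (log2 fold change 6.32, adjusted p = 0.00149). SOX10, a neural crest regulator, had 3.71 and 3.64 CPM in the ESC libraries and 18.4 and 0.689 CPM in the NEC libraries, was not called, and changed direction with the library left out (2.32 without NEC replicate 2 and -2.40 without NEC replicate 1). The neural crest list had 11 of 25 higher and 3 lower, or 6 lower without NEC replicate 1.

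Chemokines, interleukins and their receptors had 19 of 55 lower (34.5%) and 9 higher (16.4%). CXCL12, a chemokine that guides cells, had 22.5 and 34.7 CPM in ESCs against 3.37 and 9.88 CPM in NECs (log2 fold change -2.10, adjusted p = 0.00756), and CXCR7, its scavenger receptor, had 2.33 and 2.99 CPM in ESCs against 20.4 and 16.97 CPM in NECs (log2 fold change 2.80, adjusted p = 1.22e-04). Interferon-stimulated genes had 5 of 28 in each direction, with IFITM1, which hinders virus entry, at 344 and 398 CPM in the ESC libraries and 20.6 and 15.5 CPM in the NEC libraries (log2 fold change -4.36 ± 0.17 (SE), adjusted p = 1.50e-05) and IFI6 at 1.16 and 0.930 CPM in ESCs against 18.005 and 14.9 CPM in NECs. Imprinted genes, which are expressed from 1 parental copy, had 12 of 31 higher and 2 lower (median 1.06). DLK1, a NOTCH inhibitor, had 1.06 and 0.970 CPM in the ESC libraries and 640.1 and 337 CPM in the NEC libraries (log2 fold change 8.91, adjusted p = 3.16e-05), H19 had 6.30 and 6.75 CPM in ESCs against 63.5 and 26.2 CPM in NECs (log2 fold change 2.77, adjusted p = 0.00163), and SNURF fell (log2 fold change -1.86, adjusted p = 1.41e-04). No MAGE gene was called higher and 1 of 11 fell, MAGEB17 (log2 fold change -6.50, adjusted p = 1.27e-05), while 10 of the 11 were higher by the adjusted p alone.

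Germline and piRNA genes had 3 of 15 lower and none higher, with TEX15 at 54.3 and 52.2 CPM in ESCs against 15.01 and 17.8 CPM in NECs (log2 fold change -1.70, adjusted p = 1.03e-04). Among histone lysine methyltransferases and demethylases 3 of 55 rose and 1 fell, PRDM14, a pluripotency regulator, which had 234 and 172 CPM in the ESC libraries and 3.27 and 12.03 CPM in the NEC libraries (log2 fold change -4.71 ± 0.50 (SE), adjusted p = 4.69e-04), and without ESC replicate 1 the fallen genes numbered 3. Antigen presentation genes had 2 of 18 lower and none higher (4 lower without NEC replicate 2), and TRIM genes 3 of 47 higher and 7 lower.

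By gene type, 14.5% of 1965 tested long noncoding RNAs were called higher and 17.3% lower, against 10.9% and 8.37% of 14592 protein-coding genes. Long noncoding RNAs summed to 21278 and 21322 CPM in ESCs and to 16289 and 15832 CPM in NECs. The LINC-named RNAs had 6 of 34 tested higher and 7 lower, and LINC00458 had 649 and 656 CPM in the ESC libraries and 0.327 and 1.66 CPM in the NEC libraries (log2 fold change -9.29 ± 0.41 (SE), adjusted p = 2.23e-05), with no overlap between the groups. Strand was not used in counting, so reads of overlapping or antisense genes cannot be told apart from those of their partners.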

How the data were processed

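Poly(A) RNA-seq libraries (TruSeq RNA v2, 500 ng of total RNA, single-end Illumina HiSeq) of 2 ESC and 2 NEC replicates were analysed. Reads were trimmed by the authors, aligned with TopHat to GRCh37 (TopHat2 2.0.8b and Bowtie 1.0.0 in the submitters' processing notes) and counted per gene in SeqMonk on the Ensembl v70 gene set without strand. How reads that match several places were treated is not given in the sources used here. The deposited values are whole-number counts without normalization. Genes were kept by filterByExpr (minimum count 10), which left 17564 of 31017, scaled by TMM and tested with edgeR 4.0.16 in R 4.3.3 (quasi-likelihood, cell type only, prior count 0.125). The alternatives were other scalings and filters, DESeq2 1.42.0, which the authors used, no fold threshold, the replicate number as a block, each library left out, and, chosen after seeing the data, no genes with copies. Gene types and pseudogene names came from GENCODE v44 lifted to GRCh37 (28730 genes matched by identifier).

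In simulated counts for this comparison, with 17207 genes kept and 200 changed, edgeR recovered 200 with 8 false calls. The changed genes were drawn from well counted genes and were set beyond the fold threshold. The recovery therefore does not describe genes with few counts or changes near the threshold. The 118 gene lists and the named genes were chosen with earlier results of these data known. Named genes are, in each list, the called member with the highest and the one with the lowest fold change among those of at least 10 CPM, key genes of the lists, the 8 steepest changes each way among genes with log2 CPM averaging 4 or more, and the 8 largest gains and losses of CPM. Others are marked in the text as chosen after their values were seen.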

Additional observations from a re-analysis of the deposited data

How the results depend on the processing

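The called genes numbered 1997 higher and 1700 lower in NECs. With the adjusted p alone they numbered 5529 and 5209. Under the other scalings and filters, DESeq2 (1831 and 1631) and the fit without genes with copies (1918 and 1613 of 15768 genes, chosen after seeing the data), both counts stayed within 1.5 times. Left-out libraries gave 1770 to 2213 higher and 1524 to 1892 lower genes. With the replicate number as a block there were 1987 and 1711. Samples share only a number (correlation of their deviations 0.06), and with 2 pairs no pairing was read from it.

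Of 179 called named genes, 7 lost the call in at least 1 alternative: DCC, BHLHE40, TET2, ABCB6, MYO15B, KCNG1 and SCN4A. HOXB13, named outside that rule, lost its call without ESC replicate 2. The genes whose direction turned were not called. SOX10 ran from -2.40 without NEC replicate 1 to 2.32 without NEC replicate 2. VIM was at -0.16 without ESC replicate 2 and -0.12 without NEC replicate 1, and at most 0.27. CELF4 was at 0.027 with library size alone, and with libraries left out ran from -0.29 to 0.27, with 0.0023 without NEC replicate 1. SLC2A3 ran from -0.48 without ESC replicate 2 to 0.084 without ESC replicate 1. The cause was not tested. Of 62 lists with a median beyond 0.5 either way, the sign turned in 8 alternatives, all in blood and endothelium, MAGE genes or olfactory receptors. A stricter measure set the shift of each list median against the median difference between replicates in that list. By this measure 761 medians over all lists and alternatives stayed the same and 419 moved. Another scaling moved the median of all genes by -0.02 or 0.06. With 2 libraries for each cell type, genes at a few counts and lists in which the replicates differ (hypoxia, mesendoderm, neural crest) are the least certain.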
